A study of Homo sapiens with 24 samples.

Results

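The BCL2 family sets whether a cell's mitochondria are opened during apoptosis, and 10 of its genes were followed here in 2 human thyroid cell lines after depletion of COPZ1, which encodes the zeta-1 subunit of the coat on vesicles that return from the Golgi. The 10 were taken by symbol, and all 10 were present among the 18632 genes tested: the anti-apoptotic BCL2, BCL2L1, MCL1 and BCL2A1, the BH3-only BCL2L11, BBC3, PMAIP1 and BID, and the pore-forming BAX and BAK1. RNA was measured on 24 Affymetrix whole-transcript arrays, 3 wells in each of 8 groups formed by line, siRNA and time. Values are log2 expression after RMA, so a difference of 1 is a doubling.

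Nthy-ori 3-1 cells are normal follicular cells of the thyroid made immortal with SV40 and were grown in RPMI medium, whereas TPC-1 derives from a papillary thyroid carcinoma and was grown in DMEM, so line and medium cannot be told apart. Both lines received 20 nM of siRNA with Lipofectamine RNAiMAX and were collected after 48 h or 72 h. The COPZ1 reagent (siCOPZ1) was a MISSION esiRNA, a pool of enzymatically cut duplexes, and the control (siNT) was a non-targeting synthetic siRNA, so COPZ1 depletion and the kind of reagent cannot be told apart either. The replicates are described as triplicate wells, with no statement that they came from separate experiments, and each p therefore measures only the spread between these wells. No group without transfection was analysed here.

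The proteins act by binding each other. BH3-only proteins are raised or activated by stress and occupy the groove of the anti-apoptotic members or act directly on BAX and BAK1, which, once released, assemble pores in the outer mitochondrial membrane and let cytochrome c out. Much of this control lies in protein binding, cleavage, phosphorylation and turnover, none of which an expression array measures.

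COPZ1 itself stood at 25.8% and 33.6% of its siNT level in Nthy-ori 3-1 at 48 h and 72 h and at 10.5% and 22.2% in TPC-1. Arrays of one group correlated at 0.971 to 0.989 across genes. On the third principal component, which held 5.05% of the variance, array 1 had the lowest score in each of the 4 TPC-1 groups, and results that move with it are given with and without it. Of 8 thyroid markers, named with their values seen, PAX8 lay between 9.83 and 12.5 and FOXE1 between 7.14 and 8.70, and TG, TSHR, NKX2-1, SLC5A5, DIO2 and HHEX lay between 3.24 and 7.08 in all arrays, on a scale of 1.70 to 14.2. Of the 8, FOXE1 alone was called in TPC-1 at 72 h (-0.90, adjusted p = 0.0136), close to the 14.4% of all genes called there. Without detection calls, values of different probes cannot be ranked or called absent.

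Before the values, 3 promoters are shown, chosen because they belong to the member with the largest rise, to the BH3-only gene that rose most and to the BH3-only gene that fell. They are RefSeq sequence of GRCh38.p14 from 250 bases before the transcription start to 50 after it, 5′ to 3′ on the gene's strand, and capitals mark every match to the 6 motifs searched. BCL2A1 lies on the minus strand at chr15:79971147-79971446, PMAIP1 on the plus strand at chr18:59899746-59900045 and BCL2L11 on the plus strand at chr2:111120664-111120963.
BCL2A1: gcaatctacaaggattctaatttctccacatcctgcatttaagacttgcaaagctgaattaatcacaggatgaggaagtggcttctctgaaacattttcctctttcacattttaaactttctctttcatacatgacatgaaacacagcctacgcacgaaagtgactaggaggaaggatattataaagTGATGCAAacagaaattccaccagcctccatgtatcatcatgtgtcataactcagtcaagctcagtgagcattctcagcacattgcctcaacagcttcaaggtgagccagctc
PMAIP1: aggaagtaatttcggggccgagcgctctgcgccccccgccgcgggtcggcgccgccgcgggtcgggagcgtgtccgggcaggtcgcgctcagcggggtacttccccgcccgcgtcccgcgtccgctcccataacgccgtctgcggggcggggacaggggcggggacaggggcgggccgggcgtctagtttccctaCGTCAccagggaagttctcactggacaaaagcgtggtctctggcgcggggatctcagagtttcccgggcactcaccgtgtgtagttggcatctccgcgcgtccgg
BCL2L11: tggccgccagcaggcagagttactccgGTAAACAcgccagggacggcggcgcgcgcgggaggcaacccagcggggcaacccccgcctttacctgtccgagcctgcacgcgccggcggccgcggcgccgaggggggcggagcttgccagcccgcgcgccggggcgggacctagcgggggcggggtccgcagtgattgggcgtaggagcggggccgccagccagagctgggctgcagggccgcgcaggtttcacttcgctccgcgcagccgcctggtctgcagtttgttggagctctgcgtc
In BCL2A1 the capitals are a C/EBP-ATF element, TTGCATCA, read on the opposite strand 63 to 56 bases before the start, in PMAIP1 a short cyclic AMP response element, TGACG, on the opposite strand 55 to 51 bases before it, and in BCL2L11 a forkhead element, GTAAACA, 223 to 217 bases before it.

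Both strands of 14 windows of 9 members were searched, and MCL1 had none in the table. The C/EBP-ATF element was present in 0.866% of 35116 promoter windows of the same length and, among the members, in BCL2A1 alone. The forkhead element was in 3.42% of windows and, among the members, in BCL2L11 alone. The short element TGACG, which is also contained in the full element TGACGTCA, was in 24.6% of windows and was found in BCL2, BCL2L1, PMAIP1 and BAX. An AP-1 element, TGANTCA with C or G in the middle, was in 4.95% of windows and in BBC3, 113 to 107 bases before the start. The full element TGACGTCA (1.85% of windows) and the kappa-B consensus (11.3%) had no match in the members' windows. A match describes letters in a window and is not evidence of binding.

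Between siCOPZ1 and siNT, members of the family differed in TPC-1, and none was called in Nthy-ori 3-1. In TPC-1 at 72 h, 7 of the 10 members passed limma at an adjusted p below 0.05, 4 higher and 3 lower, beside 14.4% of all genes called (7.03% higher and 7.42% lower). At 48 h in the same line only BCL2A1 was called, beside 0.166% of all genes. In Nthy-ori 3-1 none of the 10 was called in limma at 48 h, at 72 h or in the mean of both times, where COPZ1 alone made up the 0.00537%, 0.00537% and 0.00537% of genes called. At an unadjusted p below 0.05, 906, 574 and 890 of all genes passed in those 3 comparisons and 0, 0 and 0 of the members.

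**Figure D1:**
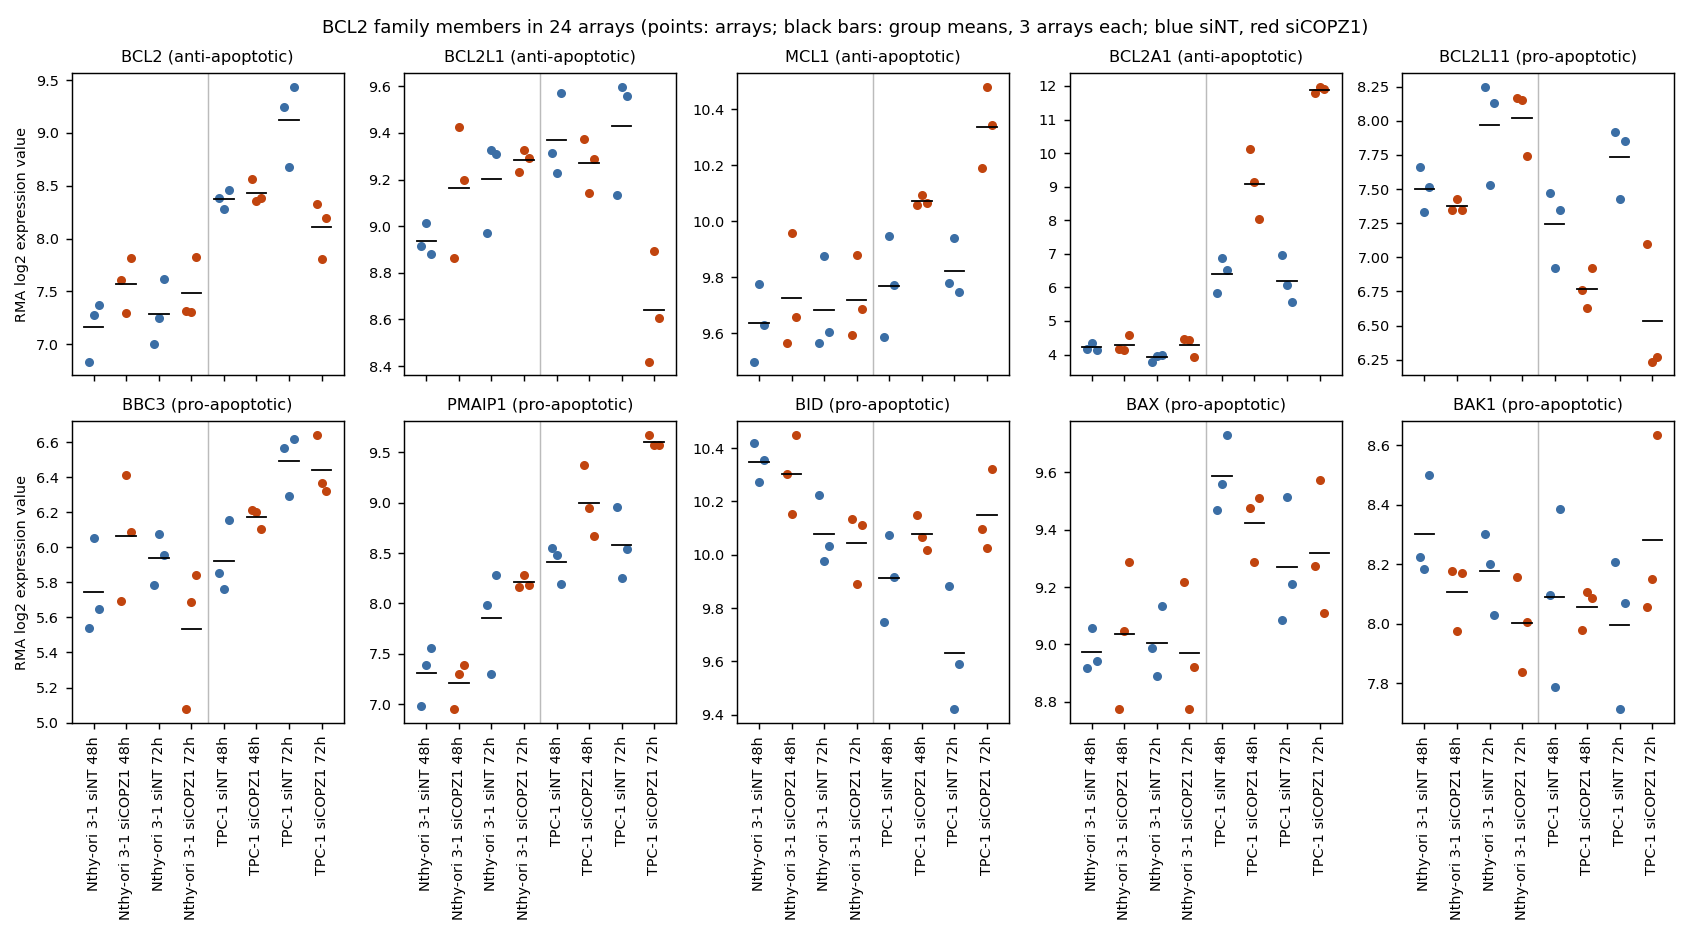
RMA log2 expression value of each of the 10 members (vertical axes, 1 panel per gene, each with its own scale) in the 8 groups of line, siRNA and time (horizontal axis); points are arrays, black bars are means of 3 arrays, blue is siNT and red is siCOPZ1. BCL2A1 runs from 5.55 to 11.97 in TPC-1 and from 3.79 to 4.58 in Nthy-ori 3-1, while BAX and BAK1 show overlapping siNT and siCOPZ1 arrays in TPC-1 at both times.

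Among the anti-apoptotic members, BCL2A1, an NF-kB target best known in blood cells that holds BCL2L11 and PMAIP1, rose most. In TPC-1 at 72 h its values were 6.97, 6.07 and 5.55 with siNT and 11.80, 11.97 and 11.91 with siCOPZ1. The groups lay far apart, and the spread was wide in siNT and narrow in siCOPZ1. The difference of 5.70 ± 0.38 (SE, 3 wells per group) is 52.0-fold, with an adjusted p of 5.87e-09.

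At 48 h, BCL2A1 read 5.84, 6.88 and 6.52 with siNT and 10.11, 9.14 and 8.03 with siCOPZ1 in TPC-1. All siCOPZ1 wells were again above all siNT wells, but they were spread over more than the siNT wells. The rise was 2.68 ± 0.38 (adjusted p = 0.00365), with the SE from the shared spread. The wells themselves had an SD of 0.53 with siNT and 1.04 with siCOPZ1 (n = 3 each). Within array numbers 1, 2 and 3 the differences were 4.27, 2.27 and 1.51. Without the arrays numbered 1 the rise was 1.89 with an adjusted p of 0.160, and in a fit on the 6 compared arrays alone the adjusted p was 0.548. The rise from 48 h to 72 h in the siCOPZ1 effect was 3.02 ± 0.54 (adjusted p = 0.00445), and BCL2A1 was the only member called in that comparison, beside 2.04% of all genes. With only the 12 arrays concerned its adjusted p was 0.0908.

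In Nthy-ori 3-1, by contrast, BCL2A1 stayed between 3.79 and 4.58 in all 12 arrays. No detection call tells this level from background, and RMA compresses differences of dim genes. Its values at 72 h were 3.79, 3.96 and 3.99 with siNT and 4.46, 4.42 and 3.93 with siCOPZ1, and the groups overlapped. The effect differed between the lines at 72 h by 5.34 ± 0.54 (adjusted p = 8.47e-06). At 48 h the difference between lines was 2.60 (95% interval 1.48 to 3.72, unadjusted p = 9.85e-05) and was not called at an adjusted p of 0.724. It passed without siCOPZ1 array 3 of TPC-1 (3.13, adjusted p = 0.00871).

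Because BCL2A1 is known from blood cells, markers of those cells were read beside it. The summed log2 value of 10 of 10 haematopoietic markers was 47.5 to 50.3 with siNT and 47.4 to 49.6 with siCOPZ1 in TPC-1 at 72 h. PTPRC, which defines leukocytes and was named with its values seen, lay between 2.67 and 3.89 in all arrays. Of these 10 genes 0 were called higher and 1, CD14, was lower at -0.51 (adjusted p = 0.0487). Of all genes, 7.03% were called higher and 7.42% lower in this comparison, so these counts are close to that share. The marker sums overlapped between siNT and siCOPZ1, and the BCL2A1 values did not. Whether other cells contributed to the BCL2A1 values was not tested.

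BCL2, the founding member, which holds BH3-only proteins at mitochondria and at the endoplasmic reticulum, went the other way. In TPC-1 at 72 h it read 9.24, 8.68 and 9.44 with siNT and 8.33, 7.81 and 8.19 with siCOPZ1. No siCOPZ1 well reached the lowest siNT well. The fall of 1.01 ± 0.21 on the log2 scale left 49.6% of the siNT level (adjusted p = 0.00260).

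The siNT wells of TPC-1 for BCL2 did not overlap between the times. At 48 h they read 8.38, 8.28 and 8.46, below every siNT well at 72 h, a difference between times of 0.74 ± 0.21 that was not called (adjusted p = 0.0715). This difference passed with a replicate block of array number within line (adjusted p = 0.00838). The siCOPZ1 wells read 8.57, 8.35 and 8.39 at 48 h, and these overlap with siNT at 48 h. The mean with siCOPZ1 at 72 h, 8.11 ± 0.27 (SD, n = 3), was thus nearer to the siNT mean at 48 h, 8.38 ± 0.09, than to that at 72 h, 9.12 ± 0.39. In bulk RNA, less RNA per cell and fewer cells of one kind in the well cannot be told apart.

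BCL2L1, whose main product BCL-XL protects most epithelial cells, also fell in TPC-1 at 72 h. It read 9.13, 9.60 and 9.56 with siNT and 8.42, 8.89 and 8.60 with siCOPZ1. The groups were separate, with siNT array 1 the closest to siCOPZ1. The difference was -0.79 ± 0.16 (adjusted p = 0.00199), and it missed the threshold with only the 6 arrays of this comparison (adjusted p = 0.0507). The array does not separate BCL-XL from the shorter pro-apoptotic product of the same gene.

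MCL1, a short-lived protein that restrains BAK1 and BCL2L11, rose slightly in TPC-1 at 72 h. It read 9.78, 9.94 and 9.75 with siNT and 10.19, 10.48 and 10.34 with siCOPZ1. All siCOPZ1 wells lay above all siNT wells, with a difference of 0.52 ± 0.13 (adjusted p = 0.0121). Leaving out siNT array 3 ended the call (adjusted p = 0.0525), as did leaving out siCOPZ1 array 2 (0.0643) and a fit with only the 6 arrays of this comparison (0.0735). At 48 h MCL1 read 9.59, 9.95 and 9.77 with siNT and 10.06, 10.09 and 10.07 with siCOPZ1, again without overlap, and the difference of 0.30 was not called (adjusted p = 0.512). Separation of wells was not counted over all genes, so it adds nothing to a difference that was not called.

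The BH3-only genes of TPC-1, too, moved in both directions. BCL2L11, which encodes BIM, a direct activator that all anti-apoptotic members bind, fell at 72 h. It read 7.92, 7.43 and 7.85 with siNT and 7.10, 6.24 and 6.27 with siCOPZ1. The groups did not overlap, although siCOPZ1 array 1 stood well above the other siCOPZ1 arrays. The fall of 1.20 ± 0.22 on the log2 scale left 43.6% of the siNT level (adjusted p = 0.000884). At 48 h the difference was -0.48 and was not called (adjusted p = 0.535), with siCOPZ1 wells at 6.76, 6.63 and 6.92 and siNT wells at 7.47, 6.92 and 7.35.

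PMAIP1, which encodes NOXA, a stress-induced protein that binds MCL1 and BCL2A1, rose in TPC-1 at 72 h. It read 8.96, 8.26 and 8.54 with siNT and 9.67, 9.57 and 9.57 with siCOPZ1. The siCOPZ1 wells were close together and above every siNT well. The rise of 1.02 ± 0.23 is 2.03-fold (adjusted p = 0.00432). At 48 h the wells with siCOPZ1, at 9.37, 8.95 and 8.66, were all above those with siNT, at 8.56, 8.49 and 8.20, but the difference of 0.58 was not called (adjusted p = 0.434). Here too, separation was not counted over all genes.

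BID, which caspase-8 cleaves to link death receptors to mitochondria, rose in TPC-1 at 72 h by 0.52 ± 0.13 (adjusted p = 0.0113). It read 9.88, 9.42 and 9.59 with siNT and 10.10, 10.03 and 10.32 with siCOPZ1. The groups were separate by a small margin. Leaving out siNT array 2 ended the call (adjusted p = 0.0675), as did leaving out siCOPZ1 array 3 (0.0669) and a fit with only the 6 arrays of this comparison (0.118).

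BBC3, which encodes the BH3-only protein PUMA, was not called in TPC-1 at 72 h, with a difference of -0.05 and a 95% interval of -0.46 to 0.37. Its siNT wells read 6.56, 6.29 and 6.61 and its siCOPZ1 wells 6.64, 6.37 and 6.32, which overlap. In Nthy-ori 3-1 its difference was 0.32 at 48 h and -0.41 at 72 h, neither called (adjusted p = 0.989 and 1.00).

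The pore-forming genes showed no called change in any comparison of siCOPZ1 with siNT. BAX, which moves from the cytosol to mitochondria when activated, read 9.08, 9.51 and 9.21 with siNT and 9.27, 9.57 and 9.11 with siCOPZ1 in TPC-1 at 72 h. These wells overlap, and the difference was 0.05 with an interval of -0.28 to 0.37. BAK1, which resides in the mitochondrial membrane, read 8.21, 7.71 and 8.07 with siNT and 8.06, 8.15 and 8.64 with siCOPZ1. The difference of 0.29 had an interval of -0.07 to 0.64, so a rise of the size seen for MCL1 lies within it.

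**Figure D2:**
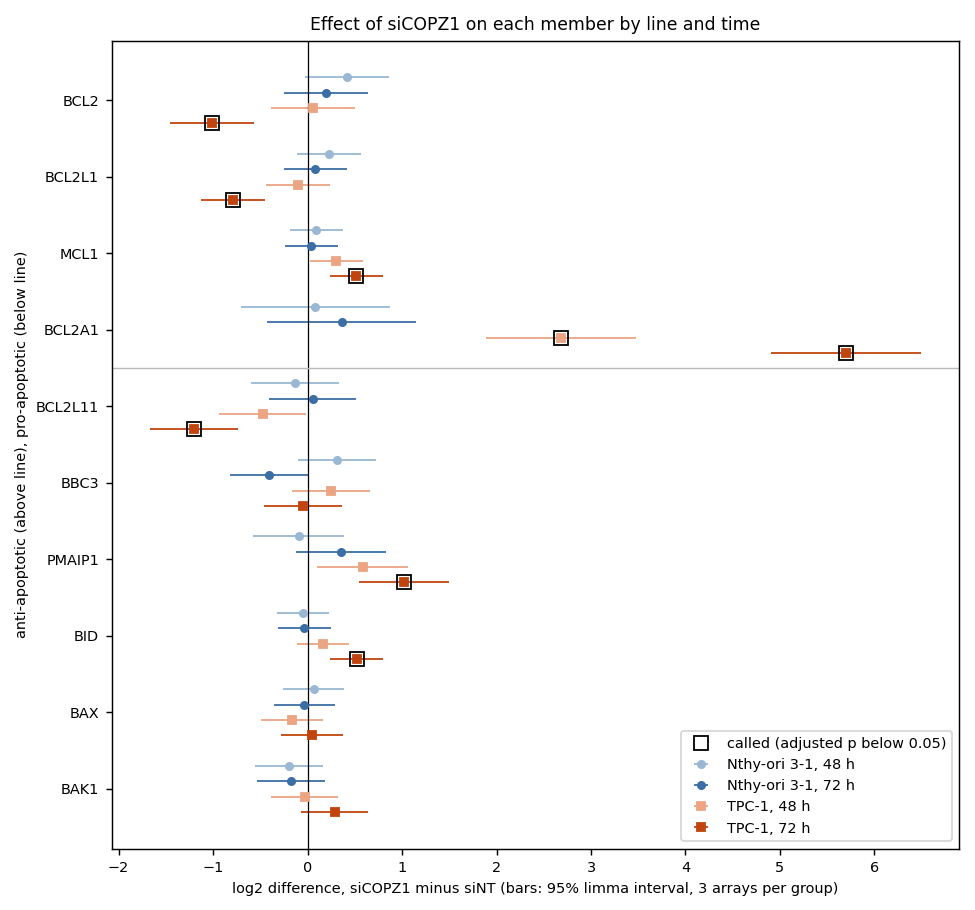
Log2 difference, siCOPZ1 minus siNT (horizontal axis), for the 4 anti-apoptotic members above the line and the 6 pro-apoptotic members below it; blue circles are Nthy-ori 3-1 and red squares TPC-1, pale at 48 h and dark at 72 h, bars are 95% intervals from limma with 3 arrays per group, and black outlines mark an adjusted p below 0.05. The outlined points are 7 members in TPC-1 at 72 h and BCL2A1 at 48 h, with BCL2A1 at 2.68 and 5.70.

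In Nthy-ori 3-1 the 10 differences ran from -0.20 for BAK1 to 0.41 for BCL2 at 48 h and from -0.41 for BBC3 to 0.36 for BCL2A1 at 72 h. BCL2 read 6.83, 7.27 and 7.37 with siNT and 7.61, 7.30 and 7.82 with siCOPZ1 at 48 h, which overlap (adjusted p = 0.989). BAK1 at 48 h read 8.22, 8.19 and 8.50 with siNT and 8.18, 7.98 and 8.17 with siCOPZ1. Its groups did not overlap, and the difference was not called in limma (adjusted p = 0.989). The 95% intervals bound what could have been missed: for BCL2L11 at 72 h it was -0.41 to 0.52 and for PMAIP1 -0.13 to 0.83.

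Whether the lines differed in the effect itself was tested as a difference of differences. At 72 h, 4 members passed, beside 4.02% of all genes. BCL2A1 is given above, and the effect in TPC-1 was lower than in Nthy-ori 3-1 by -1.20 ± 0.30 for BCL2 (adjusted p = 0.0251), by -0.87 ± 0.23 for BCL2L1 (adjusted p = 0.0331) and by -1.25 ± 0.32 for BCL2L11 (adjusted p = 0.0261). These last 3 stood close to the threshold: of 12 runs that each left out 1 array, BCL2 lost the call in 6, BCL2L1 in 8 and BCL2L11 in 7, with adjusted p up to 0.0838, 0.0967 and 0.0797. Without the arrays numbered 1 the call was lost for BCL2 (-1.19, adjusted p = 0.150) and BCL2L1 (-0.82, adjusted p = 0.0966). All 3 also lost it with only the 12 arrays of the comparison (0.0737, 0.0651 and 0.0892). BCL2A1 kept it in all 12 runs.

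For MCL1, PMAIP1 and BID the difference between lines at 72 h was not called. The differences were 0.48 (95% interval 0.08 to 0.87, adjusted p = 0.188), 0.67 (-0.01 to 1.34, 0.313) and 0.55 (0.16 to 0.94, 0.114). BID passed with array weights (0.59, adjusted p = 0.0473) and without siNT array 1 of TPC-1 (0.68, adjusted p = 0.0445). MCL1 passed with a replicate block of array number within line (0.48, adjusted p = 0.0342). At 48 h no gene of the whole table was called in the difference between lines, which is 0% of genes, while 615 genes and 2 of the members, BCL2A1 and PMAIP1, had an unadjusted p below 0.05.

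With siNT alone the lines already differed, beside 44.1% of all genes called (20.0% higher and 24.1% lower in TPC-1). Over both times 6 members were higher in TPC-1 than in Nthy-ori 3-1 and 1 was lower. BCL2A1 was higher by 2.24 ± 0.27, BCL2 by 1.52 ± 0.15, PMAIP1 by 0.92 ± 0.16, BAX by 0.44 ± 0.11, BBC3 by 0.36 ± 0.14 and BCL2L1 by 0.33 ± 0.11, with adjusted p from 6.65e-07 for BCL2A1 and 4.64e-08 for BCL2 to 0.0406 for BBC3. BID was lower by -0.44 ± 0.09 (adjusted p = 0.000594). MCL1 (0.14), BCL2L11 (-0.25) and BAK1 (-0.20) were not called. The BBC3 call was lost in 8 of the 12 runs without 1 array (adjusted p up to 0.108), with arrays centred on their medians (0.0579) and without the arrays numbered 1 (0.27, adjusted p = 0.157), and the BCL2L1 call in 4 (up to 0.0718).

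Time alone was read from the siNT wells. From 48 h to 72 h with siNT, 0 members were called in TPC-1 in limma, beside 2.10% of all genes. An unadjusted p below 0.05 was reached by 3250 of 18632 genes and by 4 members: BCL2 (0.74), BBC3 (0.57), BCL2L11 (0.49) and BID (-0.28). For BCL2 and BBC3 every siNT well at 72 h lay above every siNT well at 48 h. How many of all genes separate in this way was not counted, so whether this is unusual cannot be told. In Nthy-ori 3-1 no gene at all was called (0%), with 1548 genes and 1 member, PMAIP1 (0.55), at an unadjusted p below 0.05. For BCL2A1 (-0.30) and BID (-0.27) every siNT well of that line at 72 h lay below every siNT well at 48 h. The siCOPZ1 effect of BCL2 in TPC-1 was lower at 72 h than at 48 h by -1.07 ± 0.30, also short of the threshold (adjusted p = 0.0723). With a replicate block of array number within line it passed (adjusted p = 0.00836). In the siNT wells of TPC-1 over time, BCL2 (0.00838) and BBC3 (0.0283) passed with that block.

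Ordered by group mean, each member had few clear steps among its 8 groups. BCL2A1 had 4 neighbouring pairs whose arrays did not overlap, more than any other member: siCOPZ1 at 72 h in TPC-1 (11.89 ± 0.09, SD, n = 3) stood above siCOPZ1 at 48 h (9.09 ± 1.04), that group above siNT at 48 h (6.41 ± 0.53), siNT at 72 h (6.19 ± 0.72) above all Nthy-ori 3-1 groups, and in that line siNT at 48 h (4.21 ± 0.11) above siNT at 72 h (3.91 ± 0.11). MCL1 had 2 such steps, below siCOPZ1 at 72 h and below siCOPZ1 at 48 h in TPC-1. BCL2, PMAIP1 and BBC3 had 1 each, and BCL2L1, BCL2L11, BID, BAX and BAK1 had none. The step of BCL2A1 within Nthy-ori 3-1 was a gap of only 0.13 between arrays. Such steps were not counted over all genes, so whether these numbers are unusual cannot be told. The lowest group of BCL2L1 (8.64 ± 0.24) and of BCL2L11 (6.53 ± 0.49) was siCOPZ1 at 72 h in TPC-1, which was the highest group of MCL1, BCL2A1 and PMAIP1.

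The balance was read as the mean log2 deviation of the 4 anti-apoptotic genes from their siNT means, less that of the 6 pro-apoptotic genes, for each array. It is a description with no test, and it weights each gene equally, whatever the protein amounts. It was 0.22 ± 0.02 (SD, n = 3) with siCOPZ1 in Nthy-ori 3-1 at 48 h, followed by 0.21 ± 0.07 at 72 h. The TPC-1 wells with siCOPZ1 gave 0.68 ± 0.24 at 48 h and 1.00 ± 0.13 at 72 h. The siNT arrays of both lines and times, centred on 0 by construction, spread from -0.28 to 0.26. Each siNT array is part of the mean it is compared with, which narrows this range. All siCOPZ1 arrays of TPC-1 lay above it. The siCOPZ1 arrays of Nthy-ori 3-1 ran from 0.20 to 0.24 at 48 h, all above the siNT arrays of that line and time (-0.06 to 0.10). At 72 h they ran from 0.15 to 0.28 and overlapped with their siNT arrays (-0.28 to 0.26).

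The rise rested on BCL2A1. With BCL2A1 left out, the balance in TPC-1 was 0.03 ± 0.02 at 48 h and turned to -0.53 ± 0.12 at 72 h, with arrays between -0.67 and -0.43 against siNT arrays between -0.22 and 0.13. In Nthy-ori 3-1 it was 0.26 ± 0.04 at 48 h and 0.14 ± 0.12 at 72 h. At 48 h the siCOPZ1 arrays of that line (0.22 to 0.29) all lay above its siNT arrays (-0.09 to 0.09). At 72 h they overlapped (0.008 to 0.25 against -0.30 to 0.27). The pro-apoptotic mean in TPC-1 moved by 0.05 ± 0.07 at 48 h and 0.10 ± 0.08 at 72 h, as the rises of PMAIP1 and BID and the fall of BCL2L11 nearly cancelled in it.

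**Figure D3:**
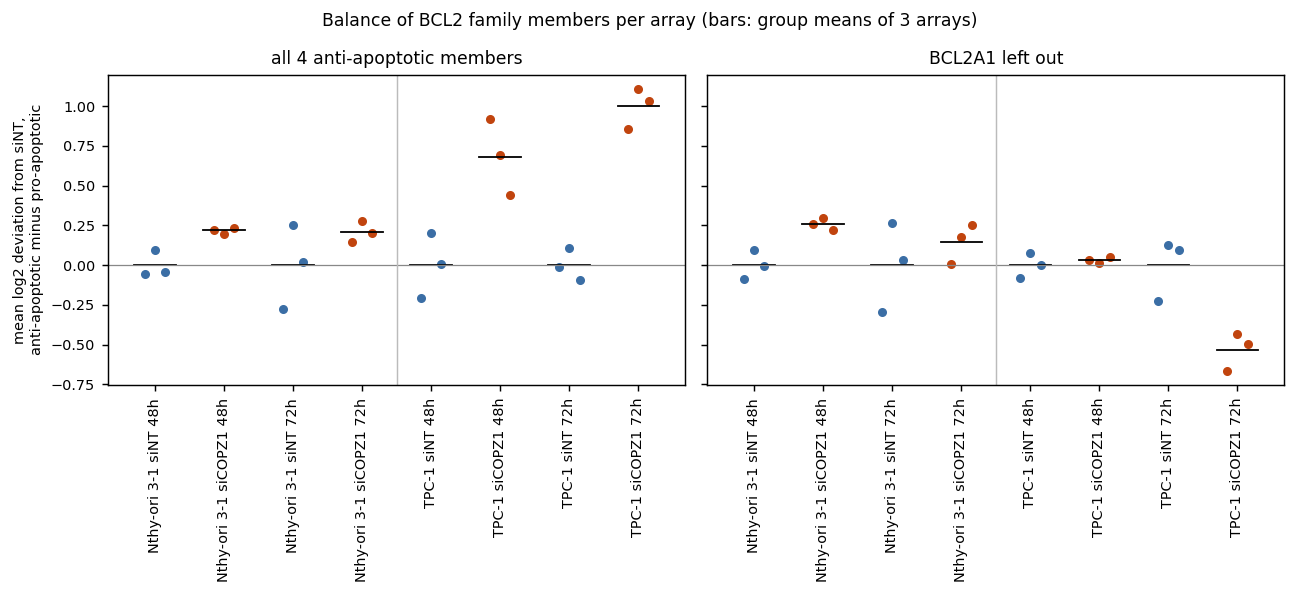
Balance per array (vertical axis: mean log2 deviation from siNT of the anti-apoptotic less that of the pro-apoptotic members) in the 8 groups, with all 4 anti-apoptotic members on the left and without BCL2A1 on the right; points are arrays and bars are means of 3. The TPC-1 siCOPZ1 arrays at 72 h average 1.00 on the left and -0.53 on the right.

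Genes that work with the family were read from lists, in which no gene was called in TPC-1 at 48 h or in Nthy-ori 3-1. Of 13 other BCL2 homologues measured in TPC-1 at 72 h, 0 were called higher and 2 lower, with a median of 0.09 beside -0.005 over all genes. The share of 2 in 13 is close to the 14.4% of all genes called in this comparison (7.42% lower). The called genes were BCL2L2, the anti-apoptotic BCL-W, at -1.14 ± 0.30 (adjusted p = 0.0132), and BOK, a pore-forming relative of BAX, at -0.64 ± 0.12 (adjusted p = 0.000668).

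Downstream of the pores, 1 of 10 apoptosome and executioner genes rose and 1 fell in TPC-1 at 72 h, with a median of -0.09, beside 7.03% of all genes called higher and 7.42% lower. CYCS, the cytochrome c gene, rose by 1.56 ± 0.43 (adjusted p = 0.0180). AIFM1, a mitochondrial flavoprotein, differed by -0.46 ± 0.14 (adjusted p = 0.0331). Of 5 measured caspase inhibitors 2 rose, both NF-kB targets that ubiquitinate signalling proteins of the TNF receptor: BIRC3 by 1.88 ± 0.48 (adjusted p = 0.0110) and BIRC2 by 1.05 ± 0.17 (adjusted p = 0.0003). Of 7 genes that degrade, cleave or anchor members, among them the MCL1 ligase HUWE1 (-0.16) and CASP8 (0.43), both picked with their values known, 0 were called in limma in either direction.

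Among 16 transcription factors reported to act on members, 6 rose and 1 fell in TPC-1 at 72 h, with a median of 0.52, beside the same 7.03% and 7.42% of all genes. NFKB1, the p50 subunit of NF-kB, rose by 1.46 ± 0.17 (adjusted p = 5.16e-06) and RELB by 1.10 ± 0.19 (adjusted p = 0.000574). DDIT3, the stress factor CHOP, rose by 2.01 ± 0.30 (adjusted p = 9.1e-05) and ATF3 by 1.29 ± 0.31 (adjusted p = 0.00721). The one that fell was MITF (-0.62), named after its value was seen, which is known to raise BCL2 and BCL2A1 in melanocytes. FOXO3, also named after its value was seen, which acts on BCL2L11 through forkhead elements, was at 0.90 and was not called (adjusted p = 0.0573).

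**Figure D4:**
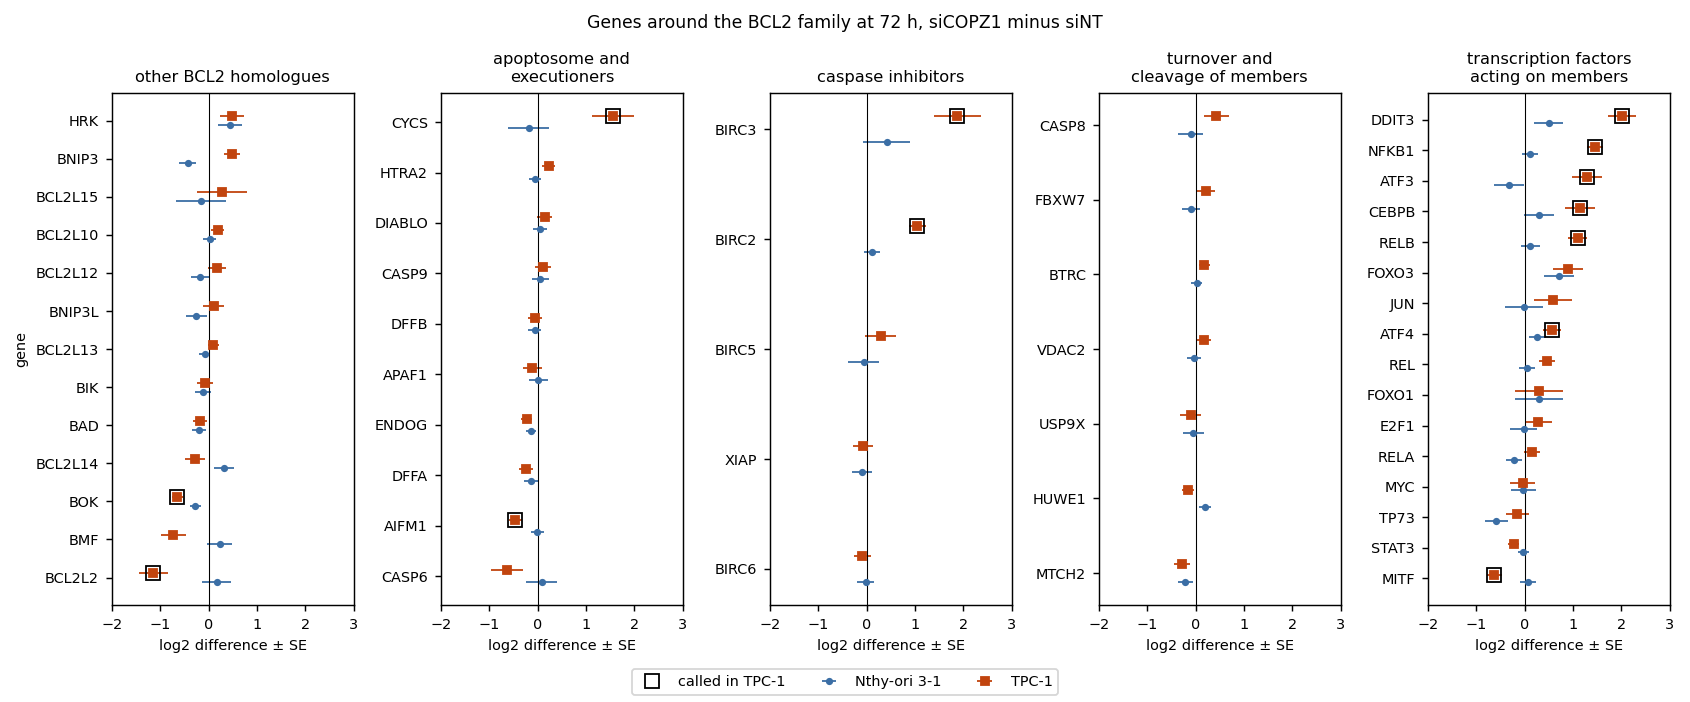
Log2 difference at 72 h, siCOPZ1 minus siNT (horizontal axes), with its SE, for genes of 5 lists around the family (vertical axes, sorted by the TPC-1 value); red squares are TPC-1, blue circles Nthy-ori 3-1, 3 arrays per group, and black outlines mark genes called in TPC-1. The outlined genes include DDIT3 at 2.01, BIRC3 at 1.88 and CYCS at 1.56 on the right of 0 and BCL2L2 at -1.14 on the left, and no gene is called in Nthy-ori 3-1.

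Across the 24 arrays, after the mean of each line was subtracted, correlations between called members ran from strong to near 0. These correlations describe arrays that share wells of the same treatment, so they repeat the group differences and carry no test. MCL1 and BCL2A1 had an r of 0.79, PMAIP1 and BCL2A1 0.67, BCL2L1 and BCL2A1 -0.72, and BCL2L11 and BCL2A1 -0.68. PMAIP1 had an r of -0.06 with BCL2L11, -0.15 with BCL2 and 0.17 with BID, and MCL1 and BID had 0.28. BAX had no r beyond -0.26 and 0.39 with any member.

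By the same measure over 24 arrays, the genes most like BCL2A1 were NAV2 (0.976), MMP1 (0.972) and CSGALNACT2 (0.957). Those most like PMAIP1 were CHAC1 (0.902), ATF4 (0.893) and SLC38A1 (0.883), and those most like MCL1 were USP36 (0.904), TMEM208 (0.895) and PPP1R15A (0.891). BCL2L11 was most like HIP1 (0.894), NEK9 (0.886) and TFDP2 (0.88), and BCL2L1 like KCNH1 (0.875), LPCAT3 (0.849) and PRKCA (0.838). BID was most like FAM210A (0.867) and CUL4A (0.858). The closest genes to BCL2 were BEX3 (0.772), FAM155A (0.76) and RANBP3L (0.752), the lowest values among the 7 members.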

How the data were processed

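Per the labels, biotin-labelled cDNA from total RNA of single wells was hybridised to Affymetrix whole-transcript arrays. The authors' deposited table holds 1 log2 value per gene and array. Per the submitters' processing notes the values come from RMA (background correction, quantile normalisation, probe summary). Chip type, software version and genome build: not given in the sources used here. RMA gives all arrays the same distribution and compresses differences of dim genes. The number of arrays limits the precision, and the table holds no detection calls.

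Of 18637 lines, 28 carry symbols turned into dates and were kept under Ensembl identifiers. For 5 symbols on several lines the line with the higher mean was kept, which left 18632 genes. Means of the 8 groups of 24 arrays were fitted together (limma 3.58.1, R 4.3.3) and 11 contrasts were tested two-sided, with Benjamini-Hochberg adjustment over all genes and calls at an adjusted p below 0.05. The procedure was tested on simulated data. The members, lists, rules and tests were chosen with earlier results of these data known.

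All members and COPZ1 are named. From each other list the text names the called genes with the 4 smallest adjusted p in each comparison of siCOPZ1 with siNT, and for each called member the 3 genes with the highest Pearson correlation, clone names passed over. A few genes were left out of the lists and are not reported here. Genes outside the rule are said to be named with their values seen.

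Array numbers come from the labels. After subtraction of group means, the deviations of same-numbered siNT and siCOPZ1 arrays had an r over genes of 0.404, 0.292 and 0.145 in TPC-1 at 48 h. In every line and time each siCOPZ1 array correlated best with the siNT array of its own number. The main fit paired no arrays, and a replicate block of array number within line was run as an alternative. With the replicate block the BCL2A1 rise in TPC-1 at 48 h had an adjusted p of 0.0069. In the other lines and times r ran from 0.03 to 0.23, and at least 1 pair in each stayed under 0.1. The alternatives were a fit on the compared arrays only, the replicate block, median centring, a trended robust fit, array weights, omission of the dimmest tertile of genes, omission of all arrays numbered 1, and omission of each array in turn. Promoter windows and motif positions were taken from RefSeq sequence of GRCh38.p14.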

Additional observations from a re-analysis of the deposited data

Results flagged for a closer look

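The siCOPZ1 effect at 72 h differed between the lines for 4 members in the test of the difference itself. It was -1.20 for BCL2, -0.87 for BCL2L1, 5.34 for BCL2A1 and -1.25 for BCL2L11, each as the effect in TPC-1 minus that in Nthy-ori 3-1 on the log2 scale. The medium changes with the line, and COPZ1 itself fell to 22.2% in TPC-1 and 33.6% in Nthy-ori 3-1. The part of either in these differences was not tested. The effect on BCL2A1 in TPC-1 also differed between times, being 3.02 larger at 72 h than at 48 h, and COPZ1 stood at 10.5% at 48 h.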

How the results depend on the processing

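Over 110 results of single members and 1730 values under alternatives, none of the 20 called results changed sign and 68 values of results not called did. In TPC-1 at 72 h, 4 members rather than 7 were called with only the compared arrays, and BCL2L1, MCL1 and BID were lost. In TPC-1 at 48 h the count was 0 rather than 1 with only the compared arrays and 0 without the arrays numbered 1. For the difference between lines at 72 h it was 1 rather than 4 with only the compared arrays, 2 without the arrays numbered 1, and between 1 and 4 when single arrays were left out; at 48 h that range was 0 to 1. For the difference between times of the effect in TPC-1 it was 0 rather than 1 with only the compared arrays, 2 with the dimmest tertile left out, and 1 to 2 when single arrays were left out. For siNT over time in TPC-1 it was 1 rather than 0 with the dimmest tertile left out and 0 to 1 without single arrays, BCL2 passing without siNT array 2 of 72 h. The replicate block of array numbers raised the last pair of counts to 2 and 2, through BCL2 (adjusted p = 0.00836 and 0.00838) and BBC3 (0.0283), and called MCL1 in the difference between lines at 72 h (0.48, adjusted p = 0.0342). Outside TPC-1 at 48 h, siNT and siCOPZ1 arrays of one number had an r of 0.03 to 0.23, and each still correlated best with its own number. Without BCL2A1 the balance was 0.26 in Nthy-ori 3-1 at 48 h and 0.0328 and -0.53 in TPC-1 at 48 h and 72 h. Apart from fits with fewer arrays or genes, the cause of these shifts was not tested. For BCL2A1 in Nthy-ori 3-1 no detection call tells its level from background.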
